A study of Mus musculus with 3 samples.

Results

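The members are 405 stretches of H3K27me3 in mouse primordial germ cells that each carried 3 or more separate patches of H3K4me3, and they made up 2.31% of the 17500 H3K27me3 regions examined, of 18731 in the whole list. They were chosen by the overlap of the deposited region lists alone: an H3K27me3 region of any width entered when at least 3 H3K4me3 regions shared 1 bp or more with it. The X, Y and mitochondrial chromosomes were left out, as was the stretch of chromosome 5 from 111000001 to 122000000. An H3K27me3 region of this kind is called a domain below, and each H3K4me3 region on it an island. The number of islands and the overlap itself are therefore the selection and not a finding, and they are given as description.

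Trimethylation of lysine 27 on histone H3 is written by Polycomb repressive complex 2 and marks genes kept silent, among them many regulators of development. Trimethylation of lysine 4 is written by the SET1 and MLL family of methyltransferases and sits at promoters, above all those rich in CpG dinucleotides, whether active or held in reserve. Chromatin with both marks is known as bivalent, and was first described at developmental genes of embryonic stem cells. Primordial germ cells, the precursors of eggs and sperm, erase much of their DNA methylation while they settle in the gonad, and the state of developmental genes in them is of interest for that reason.

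The cells carried a green fluorescent protein driven by Oct4 (Oct4:GFP) on a B6 background and came from a cross to Swiss-Webster females. Gonadal regions of many embryos at E11.5 were pooled before the GFP-positive cells were sorted, so no value can be tied to an embryo or a sex. H3K27me3 and H3K4me3 were precipitated from shares of the same lysates, an input was kept as control (not analysed here), and each of the 3 samples stands for 2 replicates. The deposited result is 1 list of regions per mark on build mm9, with positions in steps of 200 bp and without read counts. The depth is therefore unknown, no value has a replicate error, and no test between groups could be made. Intervals given with percentages are 95% Wilson intervals, which cover counting error only and treat regions as independent. Overlap of lists made from pooled cells does not show that both marks sat on the same chromatin. Whether the regions matched the defining genes of germ cells or of gonadal somatic cells was not analysed here, because no gene annotation of build mm9 was used.

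Most domains carried few islands, with a thin tail of very wide and island-rich ones. Their median width was 17 kb (quartiles 11.2 and 24.4 kb), and the narrowest and widest measured 1.80 and 142 kb. Although they were 2.31% of the regions by number, they held 14.6% of the H3K27me3 length, 8.47 of 57.9 Mb. Regions with 1 or 2 islands measured 2400 bp in the median, and regions with none 1400 bp. A wider region has room for more islands, so these differences in width and the share of length are in part built into the selection. Of the 405 domains, 205 held exactly 3 islands (50.6%), 85 held 4 and 51 held 5. A further 28 held 6 islands, 27 held 7 to 9, and 9 domains (2.22%) held 10 or more, up to 24.

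The choice of 3 islands as the lower limit cut through a continuous range. Just outside it stood 683 regions with 2 islands, with a median width of 6.8 kb (quartiles 4.0 and 11.3 kb) and a median 29.5% of their length under H3K4me3. Just inside it, the 205 domains with 3 islands had a median width of 13.6 kb (8.4 and 18.6 kb) and a median 23.3% under H3K4me3.

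Domain width and island number rose together, as a description over the 405 domains that share the same pair of lists (Spearman rho 0.515, and Pearson r 0.588 on log2 values). The median width was 17.2 kb for domains with 4 islands, 20.2 kb with 5, 23.4 kb with 6 and 33.8 kb with 7 to 9. The 9 domains with 10 or more islands had a median width of 107 kb, from 19.4 to 142 kb. A wider domain has room for more islands, and how far this accounts for the rise was not tested. Width nevertheless varied widely at a given number: domains with 3 islands ran from 1.8 to 48.0 kb and domains with 5 from 9.2 to 113 kb.

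**Figure D1:**
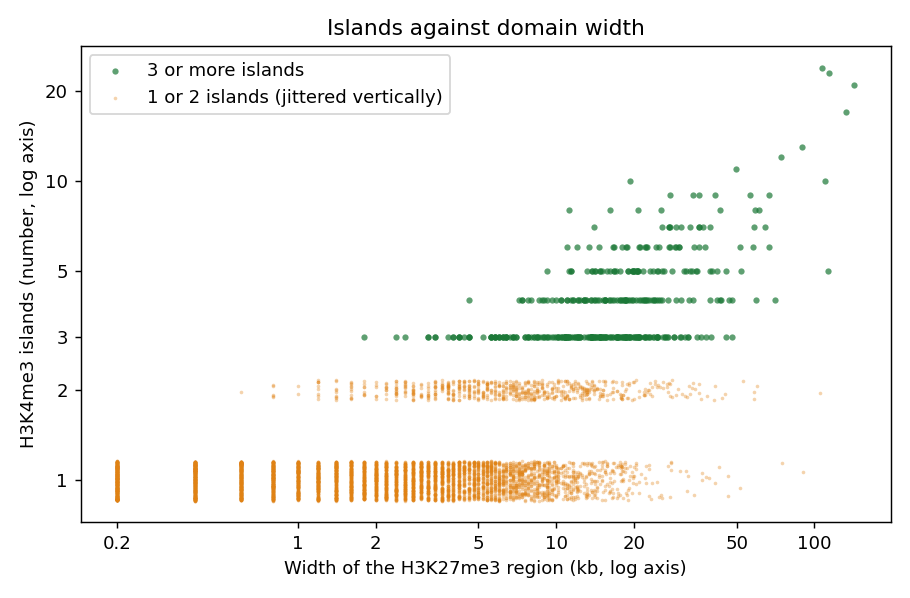
Each point is 1 H3K27me3 region, placed by its width in kb (horizontal log axis) and its number of H3K4me3 islands (vertical log axis). Green points are the 405 domains with 3 or more islands and orange points the regions with 1 or 2, spread vertically to show their number. Domains with 10 or more islands lie mostly toward the right end of the width axis, and domains with 3 islands spread from 1.8 to 48.0 kb.

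Wider domains were not more densely studded. Domains under 10 kb had a median of 4.84 islands per 10 kb (n = 74), those of 10 to 20 kb 2.50 (n = 181) and those of 20 kb and over 1.49 (n = 150). The minimum of 3 islands forces a high density on narrow domains, so this decline is in part built into the selection. The share of a domain under H3K4me3 followed the same order, with medians of 39.7%, 26.7% and 17.1%. Over all domains, H3K4me3 covered 1.78 Mb, or 20.99% of the length, with a median of 24.1% per domain (quartiles 14.9 and 35.7%, range 1.75 to 87.0%).

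The islands in these domains were mostly small patches. The domains carried 1727 islands, counted once per domain, which were 1725 different H3K4me3 regions because 2 bridged a pair of neighbouring domains. These were 20.4% (95% Wilson interval 19.5 to 21.2%) of all 8470 H3K4me3 regions that overlapped the H3K27me3 regions used. The median island was 800 bp wide (quartiles 400 and 1600 bp), and the widest measured 9400 bp. In regions with 1 or 2 islands the median was 1000 bp (400 and 1800 bp), and H3K4me3 regions that touched no H3K27me3 had a median of 600 bp (200 and 1400 bp). Islands of a single 200-bp step made up 18.1% of the islands in the domains (16.4 to 20.0%), 15.8% in regions with 1 or 2 islands (14.9 to 16.6%) and 27.8% off H3K27me3 (27.3 to 28.2%). Between the first 2 sets the order depended on width. The domains had the higher share in each class under 20 kb, with 18.3% against 13.1% at 10 to 20 kb. At 20 kb and over they had the lower, 16.7% (14.3 to 19.4%) against 19.7% (14.2 to 26.8%).

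Within a domain, sizes were uneven. The widest island of each domain measured 2000 bp in the median (quartiles 1400 and 2800 bp) and supplied a median of 50.0% of the summed island width. Whole islands were measured, parts outside the domain included. With exactly 3 islands in 205 of the domains, a large share for the widest is in part set by the small number of islands. Of the 405 domains, 114 (28.1%) held at least 3 islands of 1 kb or more, 138 held 2 such islands, 115 held 1 and 38 (9.38%) held none. At least 1 island of 200 bp was present in 217 domains (53.6%). Domains with 1 or 2 islands of at least 1 kb, accompanied by narrower ones, were thus the most frequent kind.

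Islands were spaced at a few kilobases, with gaps that differed greatly in size within the same domain. Among the 1322 gaps between neighbouring islands of a domain, the median was 1600 bp (quartiles 600 and 4000 bp) and the longest 77.4 kb. The median distance between centres of neighbouring islands was 2900 bp. Gaps under 1 kb were 34.9% (32.3 to 37.5%) and gaps of a single 200-bp step, the smallest that the lists can hold, 14.3%. At the other end, 18.2% exceeded 5 kb and 5.75% exceeded 10 kb. The gap between the islands of regions with exactly 2 had a median of 1200 bp, and 41.1% (37.5 to 44.9%) of those gaps were under 1 kb. In the 115 domains with 5 or more islands, the longest gap was a median 17 times the shortest (quartiles 9.0 and 30.0). Evenly spaced islands were thus not the usual pattern in the lists as deposited. A ratio of longest to shortest tends to grow with the number of gaps, and many of the shortest gaps were a single 200-bp step. It was not recomputed with H3K4me3 regions less than 1 kb apart joined. Gaps lengthened with width, with medians of 800 bp in domains under 10 kb, 1400 bp in those of 10 to 20 kb and 2400 bp in those of 20 kb and over. At least 3 islands in a narrow domain leave room for short gaps only, so this order too is in part built into the selection.

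**Figure D2:**
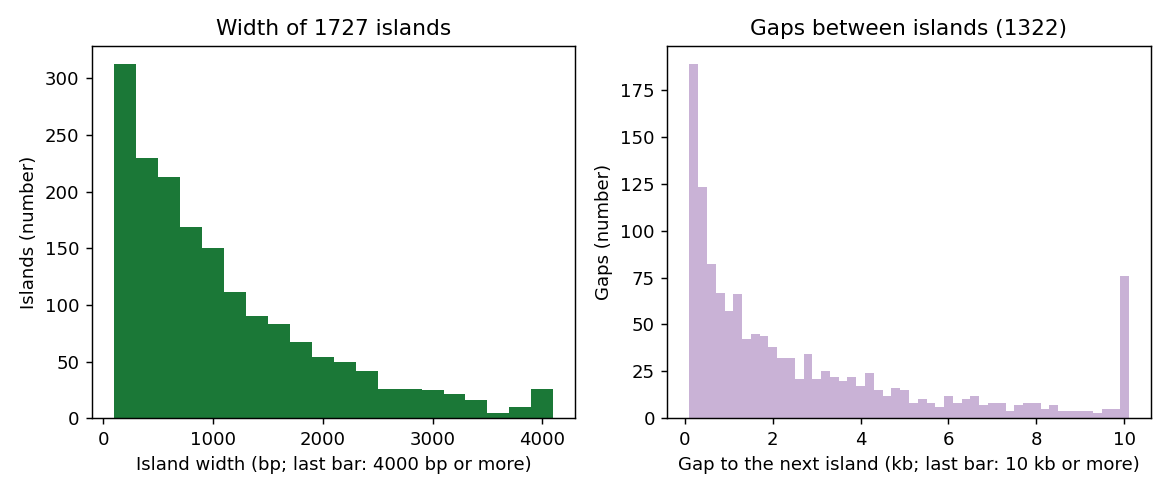
The left panel counts the 1727 islands by width in bp, and the right panel counts the 1322 gaps between neighbouring islands of the same domain by length in kb, both in steps of 200 bp with all larger values in the last bar. The single step of 200 bp is the tallest bar in both panels, and 76 gaps exceed 10 kb.

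Some domains reached 3 islands through short gaps alone, and others through islands that lay well apart. When H3K4me3 regions less than 1 kb apart were counted as 1 island, 252 of the 405 domains (62.2%, 57.4 to 66.8%) still held 3 or more, 114 held 2 and 39 (9.63%) held a single one. The 39 with a single joined island were narrow, with a median width of 8.8 kb and a median 40.9% under H3K4me3. The 114 with 2 had medians of 13.1 kb and 27.5%. The 252 with 3 or more had medians of 20.4 kb (quartiles 14.8 and 29.9 kb) and 20.2%. In 134 domains (33.1%) every gap was 1 kb or longer.

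The islands lay along most of the domain rather than at its ends. Of the 1727 islands, 1526 (88.4%, 86.8 to 89.8%) lay strictly between the edges, 94 ended exactly on an edge from inside, and 107 (6.20%) reached beyond one. No island touched either edge in 236 domains (58.3%), islands met 1 edge in 137, and both edges in 32. The stretch of H3K27me3 without an island at an end of a domain had a median of 1800 bp (quartiles 200 and 4600 bp, 810 ends), and 21.1% of ends had more than 5 kb of it.

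H3K4me3 was spread evenly over the middle of the domains and was lower in the outermost parts. With each domain cut into 10 equal parts, the mean share under H3K4me3 was 23.0% in the first part, 28.8% and 29.9% in the central pair, and 22.3% in the last. Regions of 5 kb or more with 1 or 2 islands (n = 1632) had 10.4% in the first part, 31.4% and 29.7% in the central pair, and 11.1% in the last. In the central parts the values were thus close, and in the outermost parts they were higher in the domains with 3 or more islands. The number of islands, which the selection fixed, differs between these sets, and this was not separated from position. Widths were not matched either. The domains were taken at any width, with a median of 17 kb, whereas 1101 of the 1632 regions were 5 to 10 kb wide.

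**Figure D3:**
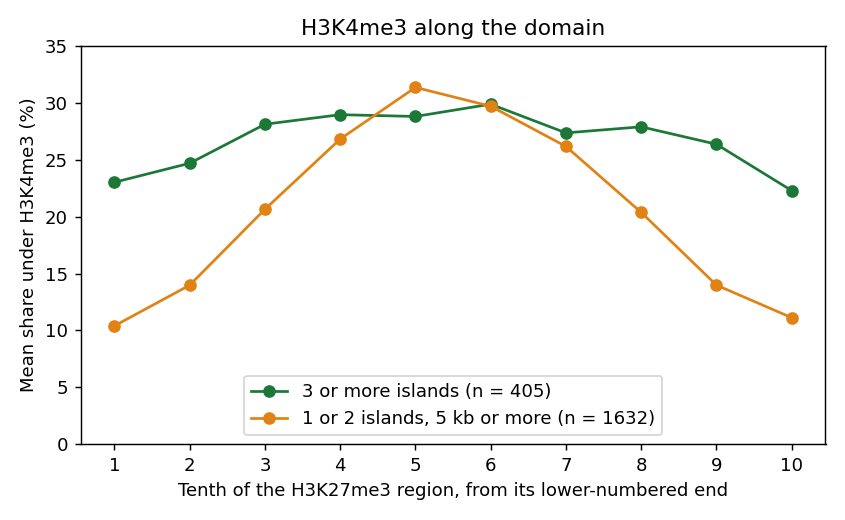
The horizontal axis divides each H3K27me3 region into 10 equal parts from its lower-numbered end, and the vertical axis gives the mean percentage of each part under H3K4me3, over 405 domains with 3 or more islands (green) and 1632 regions of 5 kb or more with 1 or 2 (orange). The green line stays between 22.3% and 29.9%, while the orange line lies between 10.4% and 31.4%.

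Wide islands were found at both ends of the row of islands as well as inside it. The outermost islands of a domain measured 1000 bp in the median (quartiles 400 and 1800 bp, n = 810) and the inner ones 800 bp (400 and 1400 bp, n = 917). Whole islands were measured, so the outermost widths include the parts of 107 islands that lay outside the domain. Among the 191 domains with exactly 3 islands of which 1 was the widest, it was the middle island, 1 of 3 positions, in 57, or 29.8% (23.8 to 36.7%). H3K4me3 length was also measured on each side of a domain's midpoint. The richer side of the midpoint held a median of 69.4% of a domain's H3K4me3 length, and in 166 domains (41.0%) it held 75% or more. The share of the richer side cannot be lower than 50.0%. With 3 or 4 islands in 290 of the 405 domains, a large share is in part set by the small number of islands. How far this accounts for the values was not tested.

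Many domains kept a stretch of several kilobases without H3K4me3. The longest island-free stretch had a median of 6.0 kb (quartiles 3.6 and 9.0 kb), a median 34.04% of the domain's width, and in 70 domains (17.3%) it took up 50% or more. The longest, 77.4 kb, lay in the domain on chromosome 19 from 44801801 to 44914800, which was 113 kb wide and held 5 islands of 600 to 2400 bp. A domain on chromosome 15 (85308401 to 85378600, 70.2 kb) had 52.2 kb without H3K4me3, and its 4 islands covered 3.13% of it. Domains on chromosome 4 (115541001 to 115651400), chromosome 2 (179914401 to 179972400) and chromosome 19 (44698401 to 44765400) followed with 37.4, 36.4 and 31.8 kb.

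The 10 domains with the most islands show how different the arrangements were, and 7 of them were also among the 10 widest. The first 4 lie on chromosomes 6, 2, 15 and 11, which carry the HoxA, HoxD, HoxC and HoxB clusters of homeobox genes that specify position along the body axis. From general knowledge of this genome build they lie at those clusters, but this was not checked against an annotation. The RefSeq gene table lists 11 protein-coding genes for HoxA, 9 each for HoxD and HoxC and 10 for HoxB, and whether islands sat at their starts was not measured.

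The domain on chromosome 6 (52099401 to 52206600, 107 kb) held 24 islands of 200 to 3400 bp, of which 15 were 1 kb or wider. They covered 28.4% of it, and 70.4% of that H3K4me3 length lay on one side of the midpoint. Its first 8 islands ended 28.2 kb from the lower-numbered end, then a single island of 2000 bp stood between empty stretches of 13.0 and 11.0 kb, and the remaining 15 began at 54.2 kb. This was the densest of the 4 in share covered.

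On chromosome 2 (74481401 to 74595000, 114 kb) there were 23 islands of 200 to 1800 bp covering 17.96%, with a median gap of 2900 bp. The first 11.6 kb held none, and 7 of the gaps were under 1 kb, so that joining within 1 kb left 16 islands. This domain had no island of 2 kb or wider.

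The domain on chromosome 15 (102735201 to 102877200, 142 kb) had 21 islands covering 12.5%, with 12 gaps of 5 kb or more and a median gap of 5900 bp. The domain on chromosome 11 (96106601 to 96238800, 132 kb) had 17 islands covering 10.6%, with a median gap of 5700 bp. Both were more sparsely covered than the domains on chromosomes 6 and 2, with longer median gaps. The 85 islands of these 4 domains were 4.92% of all islands in the 405, and 7 (8.24%) were a single 200-bp step, against 18.1% over all domains. None of the 85 touched a domain edge, which only the first and last island of each domain could do. The 4 were singled out by their island number, so these values are descriptive.

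**Figure D4:**
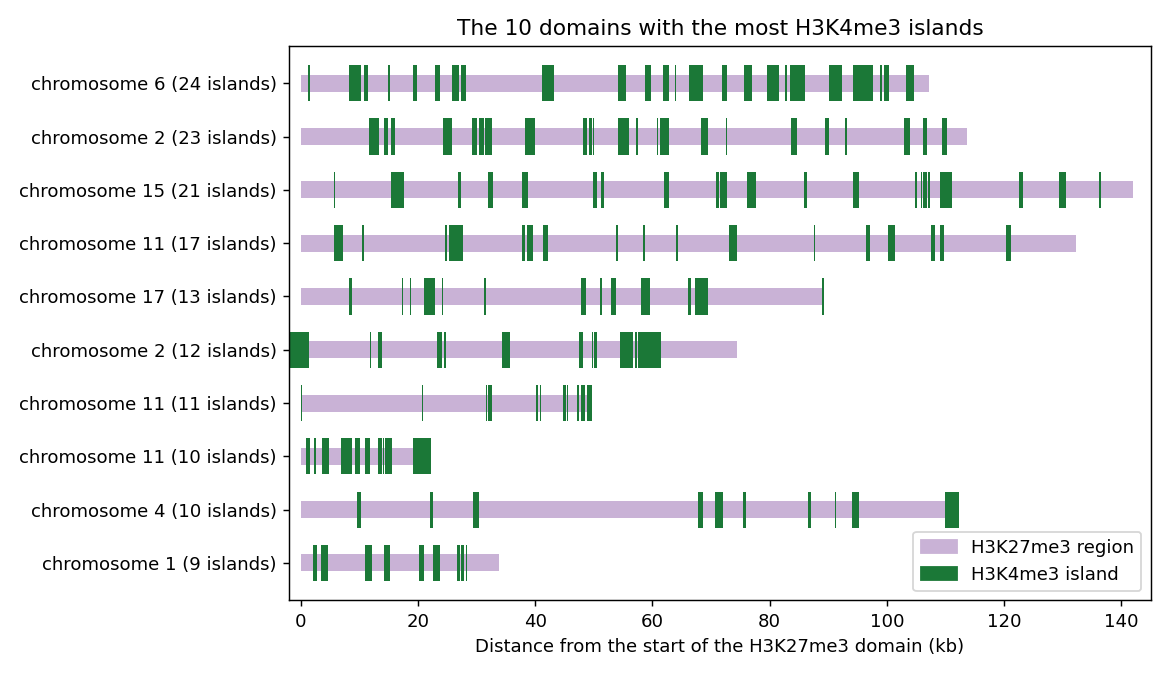
Each row is 1 of the 10 domains with the most islands, drawn to scale from its lower-numbered end in kb, with H3K27me3 in violet and H3K4me3 islands as green blocks. The domains on chromosomes 6, 2, 15 and 11 carry 24, 23, 21 and 17 islands along nearly their whole length, whereas the domain on chromosome 4 with 10 islands has an empty stretch of 37.4 kb.

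The other 6 differed in kind. The domain on chromosome 17 (47993201 to 48082400, 89.2 kb) held 13 islands covering 11.2%, and its last 2 islands were 19.6 kb apart. A second domain on chromosome 2 (33437001 to 33511400, 74.4 kb) held 12, including one of 3800 bp, and its last 13.0 kb were empty. The domain on chromosome 11 from 77641001 to 77690600 (49.6 kb) held 11 islands, 7 of them of 200 bp and none reaching 1 kb, which covered only 7.66%, and 89.5% of that H3K4me3 lay on one side of the midpoint. The most compact was also on chromosome 11 (118894601 to 118914000), where 10 islands covered 42.3% of 19.4 kb and no gap exceeded 3600 bp. The domain on chromosome 4 (115541001 to 115651400, 110 kb) held 10 islands, all at least 2000 bp apart, and that on chromosome 1 (74826801 to 74860600, 33.8 kb) held 9 covering 21.9%.

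Coverage by H3K4me3 set other domains apart. Among domains of 10 kb or more, the highest share was 75.5% on chromosome 8 (94320201 to 94330800), where 3 islands of 800 to 4000 bp filled 8.0 of 10.6 kb. Next came a domain on chromosome 7 (144500001 to 144514800) with 70.3% and one on chromosome 9 (62984201 to 63001800) with 67.0%. In such domains H3K27me3 and H3K4me3 occupied largely the same sequence. At the low end, a domain of 45.6 kb on chromosome 19 (7152401 to 7198000) had 1.75% of its length under 3 islands of at most 400 bp. Domains on chromosome 4 (124978001 to 124997000) and chromosome 2 (31340801 to 31357800) held 3 islands of 200 bp each and had 3.16% and 3.53% covered.

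Some of the widest islands extended outside the domains they met. The widest measured 9400 bp and shared 4400 bp with a domain of 10.2 kb on chromosome 6 (88140401 to 88150600), of which 3 islands covered 66.7%. On a domain of 2.4 kb on chromosome 11 (84340801 to 84343200), an island of 6000 bp was wider than the domain itself. Of its 3 islands, 2 reached its edges, and together the 3 covered 58.3% of it. Domains under 5 kb were few in the selection, 18 of the 405, of 14450 H3K27me3 regions of that width.

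The surroundings of the domains were not used in choosing them, apart from islands that crossed an edge. H3K4me3 regions separate from the domain lay within 10 kb outside it for 65.2% of domains of 10 to 20 kb (118 of 181, 58.0 to 71.8%). Among H3K27me3 regions of the same width class the share was 53.0% (48.3 to 57.6%) with 1 or 2 islands and 43.0% (36.0 to 50.3%) with none. For widths of 5 to 10 kb the shares were 66.1% (53.0 to 77.1%), 50.3% (47.4 to 53.3%) and 48.8% (45.4 to 52.3%) in the same order of sets. At 20 kb and over the shares were 52.7% (44.7 to 60.5%), 48.5% (38.8 to 58.3%) and 40.5% (26.3 to 56.5%), with intervals that overlap. Under 5 kb, where only 18 domains had 3 or more islands, they were 66.7% (43.7 to 83.7%), 48.8% (47.3 to 50.2%) and 45.0% (44.0 to 46.0%). The intervals of the domains and of regions with 1 or 2 islands also overlapped at 5 to 10 kb and under 5 kb. At 10 to 20 kb they nearly met. Domains with 3 or more islands had the highest share in each width class, by the smallest margin at 20 kb and over. These differences were not tested, and the intervals cover counting error only. Widths within a class were close but not equal, with medians of 14.8, 13.0 and 12 kb at 10 to 20 kb.

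Over a longer range the medians lay closer together for wide regions than for narrow ones. Within 100 kb of either edge, domains of 10 to 20 kb had a median of 8 separate H3K4me3 regions (quartiles 4 and 14), against 7.5 (4 and 12) for regions with 1 or 2 islands and 6 (3 and 11) for those with none. At 20 kb and over the medians were 8, 7 and 7. At 5 to 10 kb they were 10, 7 and 6, and under 5 kb, where only 18 domains had 3 or more islands, 12.5, 6 and 6.

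Other H3K27me3 was common beside the domains, and at widths of 10 kb or more it covered less of their flanks than of those of regions with fewer islands. At 10 to 20 kb, other H3K27me3 regions covered 23.2% of the flanking 10 kb on each side of the domains, 30.5% beside regions with 1 or 2 islands and 45.8% beside regions with none. At 20 kb and over the values were 33.4%, 43.1% and 45.6%. The order was different at 5 to 10 kb, with 20.6%, 19.3% and 35.2%, and under 5 kb, with 23.8%, 9.52% and 19.5%. No interval was computed for these covered shares, and the differences were not tested. Over all 405 domains the nearest other H3K27me3 region was a median of 1600 bp away (quartiles 800 and 6000 bp), and in 129 (31.9%) it was less than 1 kb away. At least 1 edge of each of these 129 domains was therefore a break of under 1 kb between neighbouring H3K27me3 regions. Short distances of this kind were not particular to the domains. At 10 to 20 kb the median distance was 2.0 kb for the domains, 1.5 kb with 1 or 2 islands and 1.0 kb with none. At 20 kb and over the medians were 1.2, 0.8 and 1.0 kb. At 5 to 10 kb they were 2.0, 2.8 and 1.4 kb, and under 5 kb 2.0, 11.2 and 2.6 kb.

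**Figure D5:**
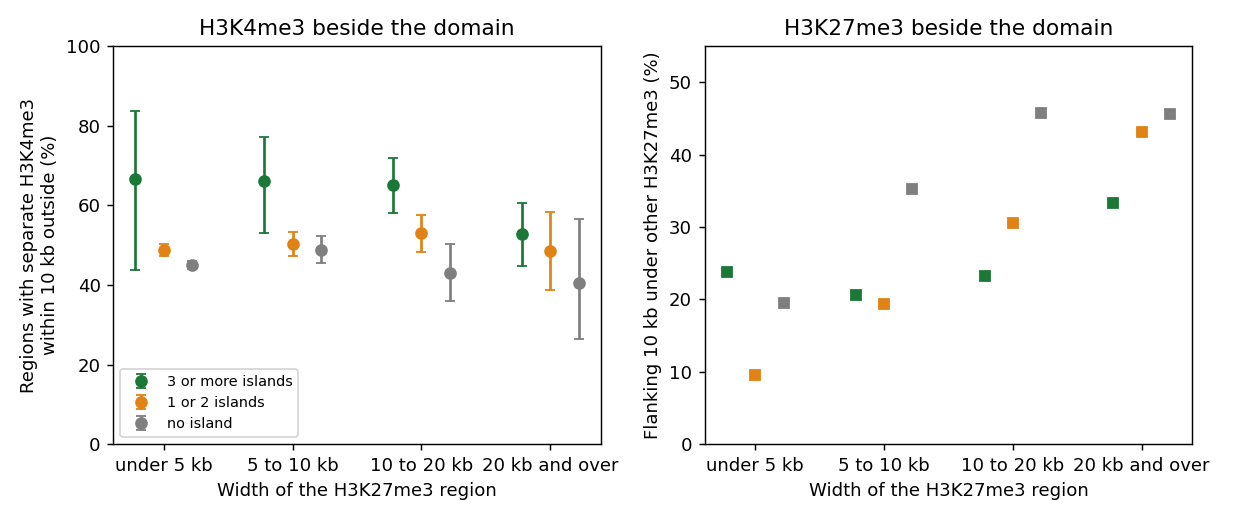
H3K27me3 regions are grouped by width (horizontal axis) and by their islands: 3 or more (green), 1 or 2 (orange) and none (grey). The left panel gives the percentage with a separate H3K4me3 region within 10 kb outside, with 95% Wilson intervals, and the right panel the percentage of the flanking 10 kb under other H3K27me3. At 10 to 20 kb the green point of the left panel stands at 65.2% and that of the right panel at 23.2%, the lowest of the 3 sets there.

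The domains were spread over all 19 autosomes, with small groups of neighbours. Chromosome 2 held the most, 47 of its 1329 H3K27me3 regions (3.54%, 2.67 to 4.67%), and chromosome 19 the highest share, 23 of 593 (3.88%, 2.60 to 5.75%). The lowest shares were 1.31% (0.832 to 2.07%) on chromosome 5 outside the stretch left out and 1.36% (0.797 to 2.32%) on chromosome 6. The domains made up 27.6% of the H3K27me3 length on chromosome 19 and 23.2% on chromosome 2, and 8.83% on chromosome 6.

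Of the 405 domains, 112 (27.7%, 23.5 to 32.2%) had another within 100 kb, in 35 pairs and 14 groups of 3, and the median distance between neighbouring domains of a chromosome was 1931 kb. The share with another within 100 kb was 18.2% without regions of 400 bp or less, 17.9% with H3K4me3 regions less than 1 kb apart joined and 17.4% with 5 or more islands required, settings that leave fewer domains. No such share was computed for other H3K27me3 regions. Whether the domains lay closer together than H3K27me3 regions in general is therefore not known. The groups of 3 spanned 65.8 to 216 kb and held 10 to 26 islands. Chromosome 11 had 4 of them, chromosome 7 had 3 and chromosome 19 had 2. The group with most islands was on chromosome 11 (96023401 to 96238800), where the domain of 132 kb described above and its neighbours held 26. The group on chromosome 19 from 44698401 to 44914800 was the one with the greatest span, with 198 kb of H3K27me3 in its 3 domains and 14 islands. The most compact, on chromosome 11 (118894601 to 118960400), held 20 islands in 55.8 kb of domains.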

How the data were processed

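The submitters' processing notes name the aligner Bowtie 0.12.7 and the genome build mm9. For each mark the authors deposited 1 list, named as contiguous ChromHMM regions, with 4 columns (chromosome, start, end and name). What settings that segmentation had, how the input was used and how replicates were joined is not given in the sources used here. All 47928 H3K4me3 and 18731 H3K27me3 regions lay on a grid of 200 bp. Overlaps were counted from 1 bp, coordinates are printed counting from 1, and flanks were 10 kb or 100 kb. Regions on X, Y and the mitochondrial genome, and those touching chromosome 5 from 111000001 to 122000000, were left out. Named domains follow a rule: the 10 widest, the 10 with most islands, the 5 highest and lowest in H3K4me3 share at 10 kb or more, the 5 longest island-free stretches and the 5 widest islands. The members, lists and rules were chosen with earlier results of these data known. The gene table is of another build (GRCm38) and served for names only. No sequence was printed, because no genome of build mm9 was used here. The overlap procedure was checked on 600 simulated domains, and it recovered the planted number of islands in all 600. The simulated islands were all 400 bp wide and lay inside a domain or only touched its end. Islands that cross an edge were not simulated. Python 3.11.15, numpy 2.4.6 and pandas 2.3.3 were used.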

Additional observations from a re-analysis of the deposited data

How the results depend on the processing

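Of 72 values computed for 9 results under 8 alternatives, 53 were alike (within 1.5 times, or inside the Wilson interval for percentages of regions or islands) and 19 moved. The median width of the domains (17000 bp as reported, 17100 to 25400 bp under the alternatives), their share under H3K4me3 (19.1 to 21.9%) and the median island width (800 to 1200 bp) stayed alike under all 8. The number of domains, 405 as reported, was 231 without regions of 400 bp or less, 252 with H3K4me3 regions less than 1 kb apart joined, 200 with 4 or more islands required and 115 with 5 or more. The median gap became 3000 bp with H3K4me3 joined, and the median number of islands 5 and 6 with 4 or more and 5 or more required. Enclosed islands, 93.8% as reported, were 96.9% with at least 50% of the island inside, 95.6% with 4 or more islands and 96.6% with 5 or more. Domains with an island at an edge, 41.7% as reported, were 33.4% with an overlap of 400 bp, 31.9% with 50% of the island inside, 37.0% with 4 or more islands and 31.3% with 5 or more. Domains with another within 100 kb, 27.7% as reported, were 18.2% without regions of 400 bp or less, 17.9% with H3K4me3 joined, 19.0% with an overlap of 400 bp, 20.0% with 4 or more islands and 17.4% with 5 or more. Fewer domains enter by construction in these settings, and the causes were not tested further. The alternatives on gene starts were left out for want of an annotation on this build. No paired analysis was possible because each mark has 1 list, and no replicate could be left out for the same reason. The lists give no read counts, so how far depth limited the islands found is unknown.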
